A study of Mus musculus with 6 samples.

Results

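Uchl1, Uchl3, Uchl5 and Bap1, the ubiquitin C-terminal hydrolases, were examined together with the ubiquitin precursor gene Ubb in lung fibroblasts that carried an active form of Srebf1 or a control vector. These 5 genes were picked by symbol from the 19865 gene symbols of the count tables, and all 5 passed the filter on low counts, among 10194 genes tested. Uchl1 was picked because its level was much higher with active Srebf1, so its difference between the groups is described here without a test. The other 4 were picked by name, as relatives of Uchl1 or as a source of ubiquitin.

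The fibroblasts came from lungs of Col1a2-GFP transgenic C57BL/6 mice, in which the Col1a2 promoter drives a green fluorescent protein. A retrovirus carried either trSrebf1, the active form of Srebf1c, a transcription factor that switches on genes of lipid synthesis, or the control vector, and hLNGFR served as the marker of transduced cells. In both groups, host C57BL/6 mice had received 2 mg/kg of bleomycin, which injures the lung, and were given the cells through the trachea on day 5. Doxycycline, the inducer of trSrebf1, was given at day 7 per the treatment protocol that all 6 libraries share, and donor cells were recovered on day 10. Sorting kept living cells with both the reporter and hLNGFR that lacked CD31, CD45, EpCAM, CD146 and Ter119, so only cells with reporter signal were profiled. Each library was made from polyA RNA of 10000 sorted cells by 3'SAGE-seq, which counts tags near the 3' ends of transcripts, with 3 control and 3 trSrebf1 libraries. Mouse ages, and the mice behind the 3 libraries of each group, remain not given in the sources used here. The p-values below therefore measure the spread between libraries, which may be technical.

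Ubiquitin is a small protein that is attached to other proteins and marks many of them for the proteasome. It is made as chains or fusions that must be cut into single units, and deubiquitinases do this cutting as well as removing ubiquitin from its targets. The ubiquitin C-terminal hydrolases, or UCH family, are cysteine proteases among them. Uchl1 is best known as an abundant protein of neurons and neuroendocrine cells, including those of the airway. Uchl3 removes small adducts from ubiquitin and from the related modifier Nedd8. Uchl5 works at the proteasome and in the INO80 chromatin remodelling complex, and Bap1 is a nuclear tumour suppressor that removes ubiquitin from a histone. Ubb encodes a chain of ubiquitin units.

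The sequence upstream of each UCH gene is shown to compare Uchl1 with its relatives outside the expression data. It was taken from RefSeq (GRCm38.p6), in which all 5 members were matched. The runs start 250 bases before the RefSeq start site, read 5′ to 3′ on the plus strand, and stop before the first base of an annotated exon of the gene. Capitals mark matches, on either strand, to any of 5 motifs searched over those 250 bases. They were a sterol regulatory element (TCACNCCAC, bound by SREBP proteins), an E-box (CACGTG, also bound by them), the CCAAT box (CCAAT), the GC box (GGGCGG) and the core of a heat shock element (GAANNTTC).
Uchl1, chr5:66675871-66676090: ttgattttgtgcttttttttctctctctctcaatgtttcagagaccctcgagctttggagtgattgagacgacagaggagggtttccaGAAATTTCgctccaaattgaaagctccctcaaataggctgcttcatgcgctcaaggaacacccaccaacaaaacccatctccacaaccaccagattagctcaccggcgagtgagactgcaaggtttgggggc
Uchl3, chr14:101653717-101653966: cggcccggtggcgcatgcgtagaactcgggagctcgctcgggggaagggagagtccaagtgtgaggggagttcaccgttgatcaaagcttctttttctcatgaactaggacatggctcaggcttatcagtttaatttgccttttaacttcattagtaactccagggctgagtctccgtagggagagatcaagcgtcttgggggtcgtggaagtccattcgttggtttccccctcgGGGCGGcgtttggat
Uchl5, chr1:143777028-143777271: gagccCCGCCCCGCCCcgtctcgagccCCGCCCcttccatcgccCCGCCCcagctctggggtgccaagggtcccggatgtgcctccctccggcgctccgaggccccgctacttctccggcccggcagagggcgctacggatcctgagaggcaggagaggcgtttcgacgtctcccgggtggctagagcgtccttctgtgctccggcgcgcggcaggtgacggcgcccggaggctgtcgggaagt
Bap1, chr14:31251239-31251449: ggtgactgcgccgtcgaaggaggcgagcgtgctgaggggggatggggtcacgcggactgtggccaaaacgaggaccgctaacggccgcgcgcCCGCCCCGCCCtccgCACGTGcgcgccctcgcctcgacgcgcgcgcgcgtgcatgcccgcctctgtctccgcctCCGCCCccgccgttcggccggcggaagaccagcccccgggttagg

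The window of Uchl1 held no match to the sterol regulatory element, the E-box, the CCAAT box or the GC box, and 1 match to the heat shock core, which starts 162 bases before the RefSeq start site. The heat shock core was present in 6.69% of all 32851 upstream windows of the same length, so a match is not rare. The 3 relatives each held the GC box, with 1 match for Uchl3, 4 for Uchl5 and 3 for Bap1, against 32.7% of all windows with at least 1. In Uchl5 and in Bap1 a pair of GC boxes shares 1 base. Bap1 also held an E-box, found in 6.02% of windows. No member's window held the sterol regulatory element, which 1.05% of windows held. GC content was 48.8% upstream of Uchl1, 54.0% for Uchl3, 74.0% for Uchl5 and 74.4% for Bap1, against a median of 52.4% over all windows. Absence of a match says only that these letters do not occur in this window.

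Library totals ranged from 3675146 to 4688196 counts. Values below are CPM, counts scaled to a common library size, with totals adjusted by TMM, a method that equalises the bulk of genes between libraries. At this depth 1 count equalled 0.214 to 0.261 CPM. Of all tested genes, 30.2% differed between the groups at an adjusted p under 0.05 (quasi-likelihood test of edgeR), 17.2% being higher and 13.0% lower in trSrebf1. For 43.4% of tested genes, control and trSrebf1 values were fully separate. Srebf1 tags stood at 8.35, 5.13 and 7.75 CPM in control and at 28.5, 31.1 and 24.5 CPM in trSrebf1 libraries. Whether these tags came from the introduced trSrebf1 or from the cells' own Srebf1 was not tested, so they do not verify the labels. Rai1, transcribed from the other strand, overlaps the 3' end of Srebf1. Ctsd, the most abundant gene that differed, took 0.860% to 0.953% of counts in control and 6.53% to 6.81% in trSrebf1 libraries.

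Uchl1 (ENSMUSG00000029223.12, chromosome 5, 66676091 to 66687234, plus strand, build GRCm38) was high in all control libraries and several times higher in all trSrebf1 libraries. The control libraries held 2335, 2365 and 2852 of its tags, and the trSrebf1 libraries 24869, 20836 and 22076. Scaled, these were 609, 607 and 669 CPM in control and 5322, 5261 and 5017 CPM in trSrebf1. The lowest trSrebf1 library stood 7.49 times above the highest control library. Means were 629 ± 35.4 CPM in control and 5200.0 ± 161 CPM in trSrebf1 (SD, n = 3 each), a ratio of 8.27 and a log2 fold change of 3.05. This is the contrast on which Uchl1 was chosen, and it carries no p-value here.

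The position of Uchl1 among all genes moved with this difference. By count it ranked 236th, 211th and 201st among all symbols with the control vector, and 18th, 19th and 22nd with trSrebf1. It took 0.0600% to 0.0690% of counts in control and 0.490% to 0.530% in trSrebf1. Its gain in mean level, 4571 CPM, ranked 2nd among tested genes, behind Ctsd (59820 CPM), the lysosomal aspartic protease, and ahead of Scd2 (4483 CPM), a fatty acid desaturase. On the log2 scale 173 tested genes had a larger rise. Of the 287 genes that averaged 500 CPM or more in control, Uchl1 had the largest rise. These ranks describe how the gene was picked and support nothing further.

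Uchl1 libraries within a group lay close together. The coefficient of variation was 5.62% in control and 3.10% in trSrebf1, where counting error alone gives 1.99% and 0.665%. Uchl1 has a long antisense neighbour, Uchl1os, whose exons share 295 bases with those of Uchl1 on the opposite strand. The nearest shared base lies 10736 bases from the annotated 3' end of Uchl1, where this assay reads. No other gene had a near-identical 3' end among annotated transcripts.

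**Figure D1:**
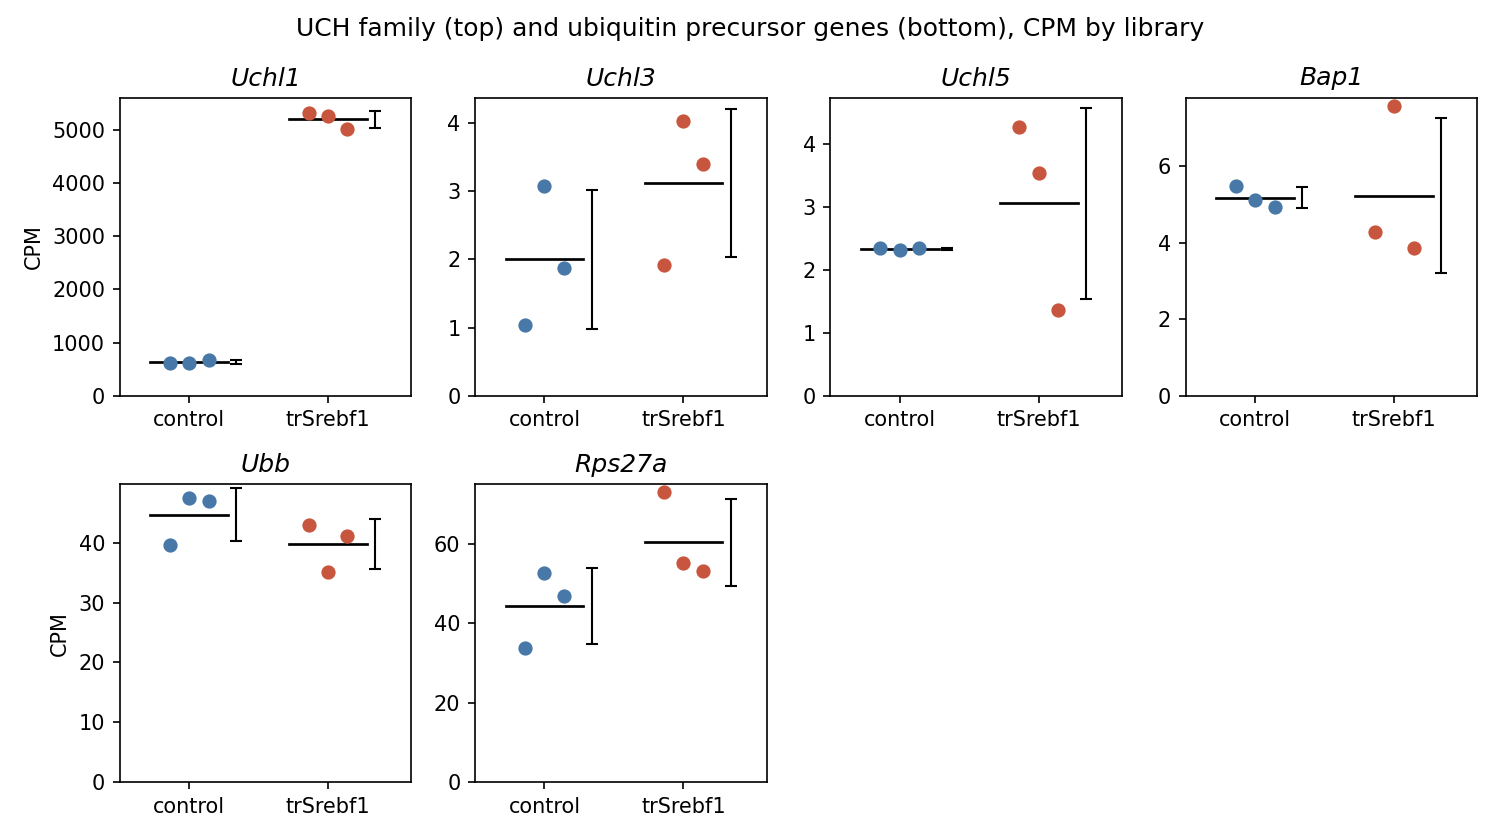
CPM of the 4 UCH family genes (top row) and the ubiquitin precursor genes Ubb and Rps27a (bottom row) in each library, control in blue and trSrebf1 in red, with the mean as a line and the SD as an error bar (n = 3 each); each panel has its own axis from 0. The 3 trSrebf1 libraries of Uchl1 lie between 5017 and 5322 CPM and its controls between 607 and 669 CPM, while the groups of Uchl3, Uchl5, Bap1 and Ubb overlap.

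The relatives of Uchl1 were near the floor of the assay. Uchl3 (ENSMUSG00000022111.9, chromosome 14, 101653967 to 101696125) had 4, 12 and 8 tags in control and 9, 16 and 15 in trSrebf1 libraries. The control values were 1.04, 3.08 and 1.88 CPM and the trSrebf1 values 1.93, 4.04 and 3.41 CPM. The groups overlapped, and the log2 fold change was 0.62 (SE 0.49, 95% interval -0.41 to 1.65, edgeR adjusted p = 0.379). The 3' end of Uchl3 matches that of its retrocopy Uchl4 over 278 bases at 97.5% identity, so tags of the pair could be mixed. Uchl4 was not analysed here.

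Uchl5 (ENSMUSG00000018189.12, chromosome 1, 143777272 to 143807466) gave 9, 9 and 10 tags in control and 20, 14 and 6 in trSrebf1. In CPM these were 2.35, 2.31 and 2.35 against 4.28, 3.53 and 1.36. One trSrebf1 library lay below every control and the other two lay above, so the groups overlapped. The log2 fold change was 0.39 (SE 0.47, 95% interval -0.60 to 1.37, edgeR adjusted p = 0.587). It was 0.055 without trSrebf1 replicate 1 and 0.75 without trSrebf1 replicate 3.

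Bap1 (ENSMUSG00000021901.10, chromosome 14, 31251450 to 31259944) had 21, 20 and 21 tags in control and 20, 30 and 17 in trSrebf1 libraries. Control libraries stood at 5.48, 5.13 and 4.93 CPM. The trSrebf1 libraries stood at 4.28, 7.57 and 3.86 CPM, so they lay on both sides of the controls. The log2 fold change was 0.0042 (SE 0.35, 95% interval -0.73 to 0.73, edgeR adjusted p = 0.994), and -0.34 without trSrebf1 replicate 2.

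None of these 3 relatives passed the test, which 30.2% of all tested genes passed. Of the 4 members other than Uchl1, 0 had an unadjusted p under 0.05 in edgeR. By DESeq2 and by limma-voom, 0 of the 4 had an adjusted p under 0.05. With 4 genes, these counts of 0 say little about the members. For Uchl3 and Uchl5 the 95% intervals leave room for a rise of up to 1.65 and 1.37 on the log2 scale, and for Bap1 of up to 0.73. Counting error alone gives a coefficient of variation of 27.4% for Uchl3 and Uchl5 and 21.2% for Bap1 in the trSrebf1 libraries.

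**Figure D2:**
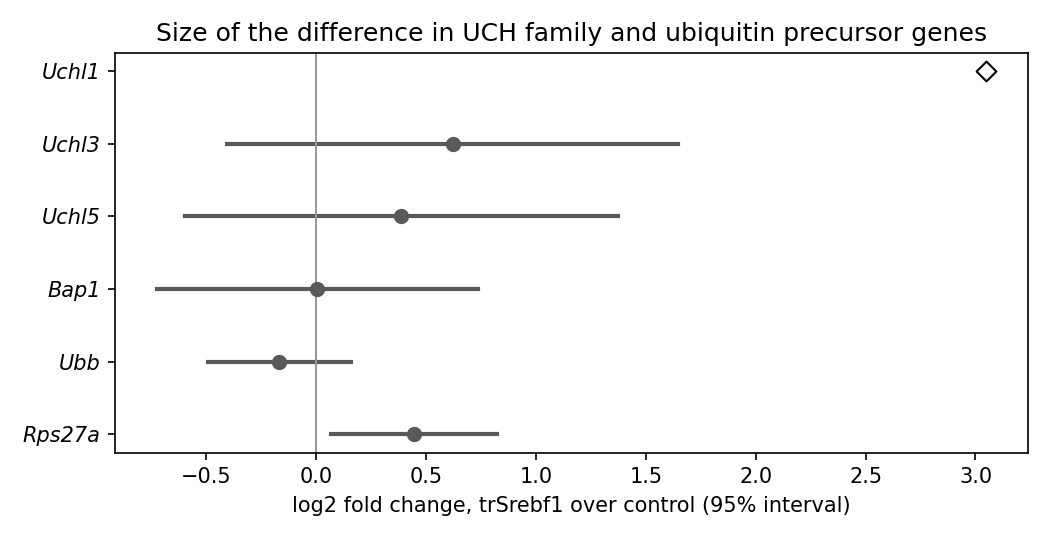
Log2 fold change of trSrebf1 over control on the x axis for each gene, with its 95% interval as a bar, none of them past the threshold on the adjusted p; the open diamond is Uchl1, which was chosen on this contrast and has no interval. Intervals of Uchl3, Uchl5, Bap1 and Ubb include 0, and that of Rps27a lies above 0 although its adjusted p is 0.0698.

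Of the genes that encode ubiquitin itself, Ubb makes a chain of ubiquitin units and Rps27a a fusion of ubiquitin to a ribosomal protein. Ubb (ENSMUSG00000019505.7, chromosome 11, 62551171 to 62553213) had 152, 185 and 200 tags in control and 201, 139 and 181 in trSrebf1. These were 39.7, 47.5 and 46.9 CPM against 43.0, 35.1 and 41.1 CPM. The groups overlapped, and the log2 fold change was -0.17 (SE 0.15, 95% interval -0.49 to 0.16, edgeR adjusted p = 0.463). The last 300 bases of Ubb match 2 processed copies, Gm1821 and Gm8797, along their whole length at 99.0% to 99.7% identity. The row of Gm1821 held 25 to 39 tags a library, with a log2 fold change of -0.17 (edgeR adjusted p = 0.679), so some tags of Ubb may have been counted there.

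Rps27a did not pass the test. It stood at 33.9, 52.6 and 46.9 CPM in control and 73.2, 55.3 and 53.2 CPM in trSrebf1, where the lowest trSrebf1 library lay just above the highest control. Its log2 fold change was 0.45 (SE 0.18, edgeR adjusted p = 0.0698), and without control replicate 2 it was 0.58 with an adjusted p of 0.0435. Near-identical copies of its 3' end occur in 10 other annotated genes, so its values are uncertain.

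Most genes of deubiquitinase families other than UCH, 50 of 65, did not pass the test. Of 65 tested members of the USP, OTU, Josephin, JAMM and MINDY families, 10 (15.4%) rose and 5 (7.69%) fell, against 17.2% and 13.0% of all tested genes. The median log2 fold change was 0.02, against -0.01 over all tested genes. Their values ran from -1.78 to 2.497. The number that rose was 6 without control replicate 3 and 6 without trSrebf1 replicate 3.

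The USP family is the largest group of deubiquitinases. Of its 43 tested members 7 (16.3%) rose and 2 (4.65%) fell, against 17.2% and 13.0% of all tested genes. Only 4 rose without control replicate 3 or without trSrebf1 replicate 3. Usp18, which removes the interferon-induced modifier Isg15, rose from 12.5, 10.3 and 8.92 CPM to 32.1, 22.5 and 30.0 CPM, a log2 fold change of 1.42 (SE 0.21, edgeR adjusted p = 6.03e-05). Usp20 rose from 11.0, 10.5 and 14.3 CPM to 30.0, 29.5 and 33.4 CPM (log2 fold change 1.37, SE 0.19, adjusted p = 2.91e-05). Neither gene's groups overlapped. Usp32 rose by 1.07 (SE 0.23) and Usp53 fell by 1.57 (SE 0.36) on the log2 scale, the control libraries of Usp53 spreading from 8.22 to 19.8 CPM. Without control replicate 1, the highest of them, the value for Usp53 was -1.05 (adjusted p = 0.0230).

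Among OTU family genes 2 of 12 (16.7%) rose and 2 (16.7%) fell, against 17.2% and 13.0% of all tested genes. Tnfaip3, which encodes A20, an inhibitor of NF-kB signalling, fell from 19.0, 15.4 and 22.5 CPM to 7.92, 11.1 and 8.41 CPM, a log2 fold change of -1.06 (SE 0.24, edgeR adjusted p = 0.00219). Otulin, which cuts linear ubiquitin chains, rose by 1.01 (SE 0.28, adjusted p = 0.00939). The other two changes were less steady. Otud3 rose by 1.04 (SE 0.35, adjusted p = 0.0339), but its adjusted p was 0.165 without control replicate 3, 0.110 without trSrebf1 replicate 1 and 0.100 without trSrebf1 replicate 3. Otud5 fell by 0.63 (SE 0.22, adjusted p = 0.0383), and its adjusted p was 0.0689 without control replicate 1, 0.122 without control replicate 2 and 0.180 without trSrebf1 replicate 1.

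The remaining families had 1 of 10 tested members (10%) higher and 1 (10%) lower, against 17.2% and 13.0% of all tested genes. Fam63b, a MINDY family enzyme now named Mindy2, rose from 1.57, 4.62 and 3.52 CPM to 20.5, 15.9 and 18.9 CPM, a log2 fold change of 2.497 (SE 0.31, edgeR adjusted p = 7.02e-06). This was the largest rise among the 65. Stambpl1, a metalloprotease, fell from 7.31, 8.22 and 7.04 CPM to 1.498, 2.78 and 2.27 CPM (log2 fold change -1.78, SE 0.36, adjusted p = 8.64e-04). Psmd14, the deubiquitinase of the proteasome lid, stood at a mean of 10.2 and 14.9 CPM (adjusted p = 0.0958), and Mysm1, which acts on a histone, at 11.9 and 8.39 CPM (adjusted p = 0.185).

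Enzymes that attach ubiquitin, the E1 activating and E2 conjugating enzymes, were led by Ube2h, Cdc34, Ube2b and Uba6, all higher with trSrebf1. Of 31 tested members 7 (22.6%) rose and 0 fell, against 17.2% and 13.0% of all tested genes, with a median log2 fold change of 0.07. The count of lower members was also 0 at an unadjusted p under 0.05 in edgeR and 0 by DESeq2 and limma-voom. Their summed level ran from 4231 to 4265 CPM in control and from 5931 to 6252 CPM in trSrebf1 libraries. The rise of the sum came mainly from Ube2h, Ube2b and Cdc34. Their means were 849, 417 and 182 CPM in control and 1649, 870 and 430 CPM in trSrebf1. Ube2h gave the most tags of the named members, with 806, 915 and 825 CPM in control and 1672, 1626 and 1650 CPM in trSrebf1, a log2 fold change of 0.96 (SE 0.10, edgeR adjusted p = 6.86e-07). Cdc34, the E2 enzyme of cullin-based ligases, rose from 182, 176 and 189 CPM to 416, 411 and 465 CPM (log2 fold change 1.24, SE 0.11, adjusted p = 7.85e-08).

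Uba6, an E1 enzyme, rose by 1.07 (SE 0.19) on the log2 scale, and Ube2b, which acts in DNA damage tolerance, by 1.06 (SE 0.19). Cdc34 has a near-identical copy, Cdc34b, over its last 300 bases, and Ube2h shares its 3' end with 4 annotated copies, so the split of their tags is uncertain.

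**Figure D3:**
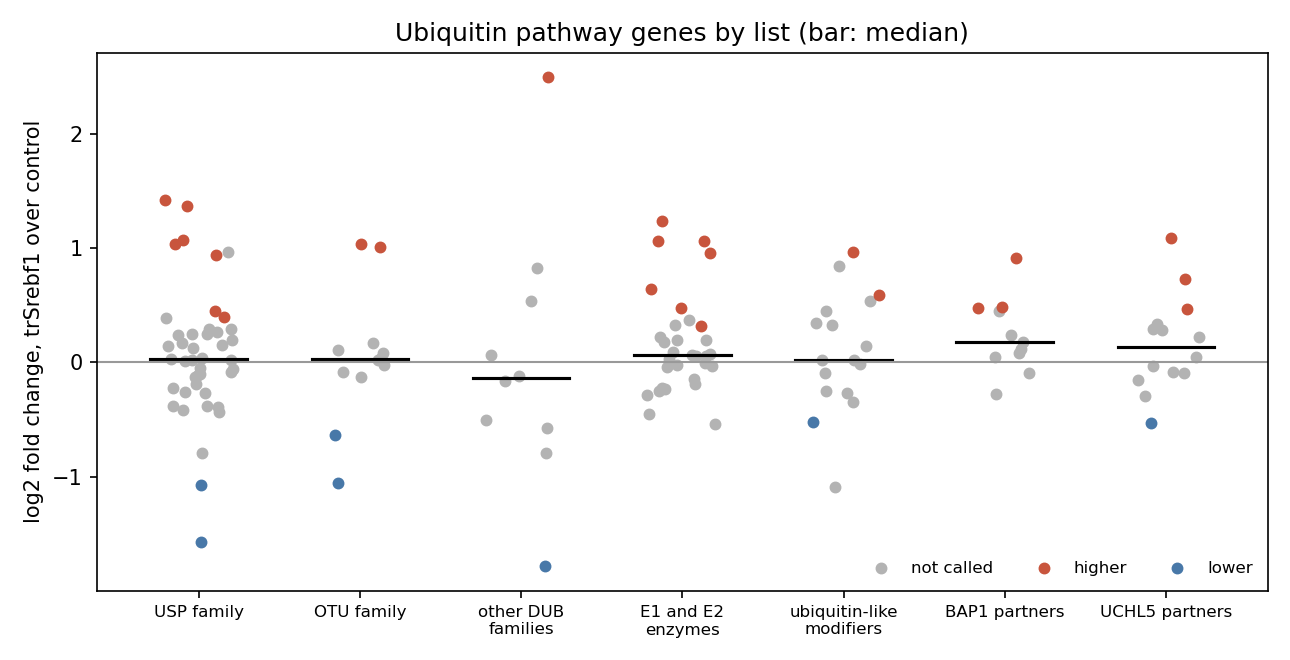
Log2 fold change of trSrebf1 over control on the y axis for every tested gene of 7 ubiquitin pathway lists, red for higher, blue for lower and grey for genes not past the threshold; black bars are list medians. Medians lie near 0, Fam63b is the highest point at 2.497 and Stambpl1 the lowest at -1.78.

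Other modifiers of the ubiquitin type were mostly not past the threshold. Of 17 tested members 2 (11.8%) were higher and 1 (5.88%) lower, against 17.2% and 13.0% of all tested genes. Their median log2 fold change was 0.02. Map1lc3b, which marks autophagosomes, rose by 0.97 (SE 0.11, edgeR adjusted p = 3.09e-06), although its last 300 bases hold sequence found near-identically in 34 other annotated genes. Ubl3 rose by 0.59 (SE 0.16, adjusted p = 0.00965). Ufm1 fell by 0.52 (SE 0.14, adjusted p = 0.00882), with an adjusted p of 0.0599 without control replicate 2 and 0.0558 without trSrebf1 replicate 3. Isg15, the modifier that Usp18 removes, averaged 174 and 312 CPM with overlapping groups and did not pass the threshold (log2 fold change 0.84, SE 0.27, adjusted p = 0.0565). It passed under 7 of 15 alternatives, over which its adjusted p ran from 1.87e-08 with no filter to 0.166 without trSrebf1 replicate 3. Those 7 included DESeq2 (3.26e-04), the removal of control replicate 2 (0.00153) and that of trSrebf1 replicate 2 (0.00393).

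Partners of the low UCH genes were also looked at. Of 11 tested genes whose products bind Bap1, 3 (27.3%) rose and 0 fell, against 17.2% and 13.0% of all tested genes, with a median log2 fold change of 0.18. The count of lower members was again 0 at an unadjusted p under 0.05 in edgeR and by DESeq2 and limma-voom. Foxk2, a forkhead factor, rose from a mean of 44.5 to 83.7 CPM, a log2 fold change of 0.91 (SE 0.15, edgeR adjusted p = 1.86e-04). Hcfc1, a transcriptional cofactor, rose by 0.49 (SE 0.13, adjusted p = 0.00693). Asxl2, which activates Bap1, rose by 0.48 (SE 0.14, adjusted p = 0.0177, and 0.0762 without control replicate 2), and Ankrd17 had a log2 fold change of 0.18 (adjusted p = 0.272).

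Of 14 tested genes of the proteasome base and INO80 complex that work with Uchl5, 3 (21.4%) rose and 1 (7.14%) fell, against 17.2% and 13.0% of all tested genes, with a median log2 fold change of 0.14. Mcrs1 rose by 1.09 (SE 0.25, edgeR adjusted p = 0.00247) and the proteasome subunit Psmd1 by 0.73 (SE 0.18, adjusted p = 0.00465), although Mcrs1 has a near-identical 3' end in Gm13127 and Psmd1 shares exons with Gm21972. Ino80c fell by 0.53 (SE 0.16, adjusted p = 0.0174), with an adjusted p of 0.114 without control replicate 1 and 0.0729 without trSrebf1 replicate 1. Psmd2 rose by 0.47 (adjusted p = 0.0448), a call lost under 11 of 15 alternatives, with an adjusted p of 0.107 and 0.153 without control replicate 2 or 3, and of 0.106 and 0.151 without trSrebf1 replicate 2 or 3.

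Since Uchl1 is known from neurons and neuroendocrine cells, 24 marker genes of those cells were examined beside it. Rows for 12 of the 24 were analysed here, and 10 of these averaged under 5 CPM in both groups. Those 10 together gave 10, 20 and 10 tags with the control vector and 16, 23 and 21 with trSrebf1, beside 20836 to 24869 Uchl1 tags in the latter. Chga, which encodes the secretory granule protein chromogranin A, had 0 tags in every control library and 4, 0 and 0 in trSrebf1. Rbfox3 had 0 tags in every control library and 0, 0 and 3 in trSrebf1, and Stmn2 had 0 in every control library and 1, 2 and 1 in trSrebf1. Elavl4 and Scg5 each had 0, 0 and 1 tags in control and 0 in every trSrebf1 library.

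Eno2 and Tubb3 were the 2 markers with clear signal. Eno2, a neuronal form of enolase, averaged 197 CPM in control and 172 CPM in trSrebf1 (log2 fold change -0.20, SE 0.10, edgeR adjusted p = 0.179). Tubb3, a neuronal tubulin, rose from 86.4, 91.9 and 87.5 CPM to 155, 201 and 164 CPM (log2 fold change 0.97, SE 0.12, adjusted p = 9.50e-06).

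**Figure D4:**
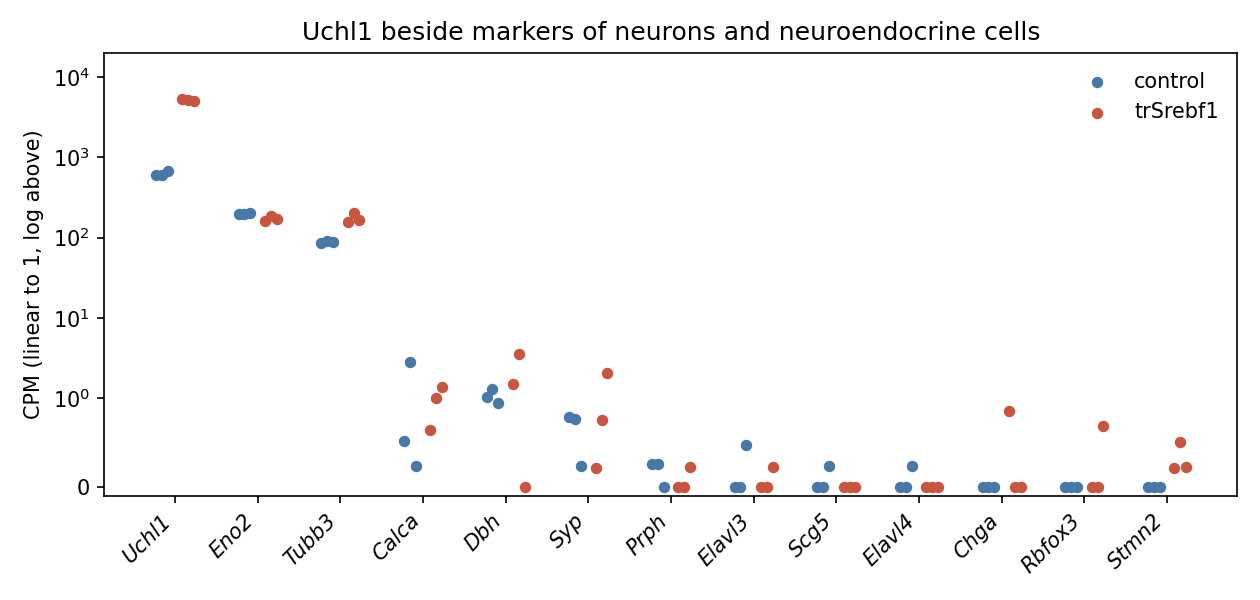
CPM in each library of Uchl1 and of 12 markers of neurons and neuroendocrine cells, control in blue and trSrebf1 in red; the y axis is linear up to 1 and logarithmic above it. Uchl1 lies between 607 and 5322 CPM, Eno2 and Tubb3 follow, and the other 10 markers average under 5 CPM in both groups.

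Leukocyte markers, 6 of 13 analysed here, summed to 0.469 to 2.09 CPM in control and 0.682 to 2.27 CPM in trSrebf1, Lyz2 and Csf1r being the highest. Of Schwann cell markers, S100b had 0, 5 and 7 tags in control and 0, 1 and 2 in trSrebf1 libraries. Epithelial markers summed to 33.4 to 48.0 and 25.2 to 57.6 CPM. Cldn18 and Krt19 had the highest means over all libraries, and Krt19 fell by 1.16 on the log2 scale (SE 0.38, edgeR adjusted p = 0.0318). That call was lost without any 1 library other than trSrebf1 replicate 2 (adjusted p = 0.0522 to 0.0833), and Cldn18 had a log2 fold change of -0.29 that was 0.21 without control replicate 2. Foxj1, a factor of ciliated cells, was higher, the 1 rise called among 5 epithelial markers tested, from a mean of 0.596 to 6.18 CPM (edgeR adjusted p = 4.77e-05). Of all tested genes, 17.2% were higher and 13.0% lower. Cdh1, the E-cadherin gene, was too low to be tested and had 0, 1 and 0 tags in control and 14, 2 and 11 in trSrebf1. The other epithelial markers too low to be tested went both ways. Means of Krt8, Krt18 and Ager were lower in trSrebf1, and those of Sftpa1 and Scgb1a1 were higher. Epcam had 0, 1 and 0 tags in control and 0, 0 and 1 in trSrebf1. Krt8 had 1, 3 and 2 tags in control and 0, 1 and 0 in trSrebf1. Endothelial markers, 8 of 10 analysed here, summed to 46.2 to 59.8 and 61.1 to 64.5 CPM, nearly all from Eng, whose log2 fold change was 0.16 (adjusted p = 0.465). Egfl7 among them rose from 0.587 to 6.62 CPM on average and shares 64 exonic bases at its 3' end with Agpat2 on the opposite strand.

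Most fibroblast markers were abundant and lower with trSrebf1. The list summed to 45835 to 58580 CPM in control and 33674 to 38543 CPM in trSrebf1. Of 13 tested members 10 (76.9%) were lower and 0 higher, against 13.0% and 17.2% of all tested genes. The count of higher members was also 0 at an unadjusted p under 0.05 in edgeR and by DESeq2 and limma-voom. The median log2 fold change of the 13 was -0.75, and values ran from -1.26 for Pdgfra to 0.14. Vim fell by 0.61 (SE 0.13) and Col1a2, whose promoter drives the reporter, by 0.47 (SE 0.10) on the log2 scale. Every other fall called was larger than these. Dcn fell by 1.13 (SE 0.10), from a mean of 7341 CPM in control to 3359 CPM in trSrebf1. Col1a1, at a mean of 7416 CPM in control and 8083 CPM in trSrebf1, was not called (log2 fold change 0.12, edgeR adjusted p = 0.419). Nor were Col5a1 (0.14, adjusted p = 0.316) and Col6a1 (-0.089, adjusted p = 0.569). Pericyte and smooth muscle markers summed to 198 to 208 CPM in control and 344 to 396 CPM in trSrebf1. Of 8 tested members 3 (37.5%) were higher and 4 (50%) lower, against 17.2% and 13.0% of all tested genes. The count of lower members was 2 without control replicate 1 or trSrebf1 replicate 3. The median log2 fold change of the 8 was -0.81. The rise of the sum came mainly from Cspg4 and Pdgfrb. Cspg4 rose from a mean of 16.3 to 120 CPM, Pdgfrb rose by 0.86 (SE 0.12) on the log2 scale, and Des by 0.49 (SE 0.14, edgeR adjusted p = 0.0106, but 0.0550 without control replicate 3 and 0.0631 without trSrebf1 replicate 3). On the same scale Cnn1, a calponin of smooth muscle, fell by 1.82 (SE 0.29, edgeR adjusted p = 1.15e-04) and Kcnj8 by 1.12 (SE 0.30, adjusted p = 0.00784). Abcc9 fell by 1.44 (SE 0.46, adjusted p = 0.0242), a call lost without control replicate 1, trSrebf1 replicate 2 or trSrebf1 replicate 3 (adjusted p = 0.0604 to 0.121). Myh11, a smooth muscle myosin, fell by 1.14 (SE 0.42, adjusted p = 0.0496), a call lost with DESeq2 and without control replicate 1 or 2 or trSrebf1 replicate 1 or 3 (adjusted p = 0.0721 to 0.201). The part of these marker shifts in the level of Uchl1 was not tested. In bulk libraries, more cells that carry a transcript and more of it per cell cannot be told apart.

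The 5 genes whose profile over the 6 libraries lay nearest to that of Uchl1 were found among 4150 tested genes that averaged 20 CPM or more in their higher group. Likeness was the Euclidean distance between log2(CPM + 1) values after each gene's mean was removed, and it is a description, since the profile of Uchl1 is the contrast on which it was chosen. They were Kif1a (distance 0.189), Ctsd (0.201), Igsf8 (0.257), Atp8a1 (0.388) and Scd3 (0.395).

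Kif1a, a kinesin that carries synaptic vesicle precursors in neurons, stood at 19.6, 21.1 and 22.8 CPM in control and 210, 193 and 193 CPM in trSrebf1 libraries. Ctsd stood at 8729, 8994 and 9197 CPM and at 65520, 71352 and 69507 CPM. Both kept narrow groups far apart, as Uchl1 did. Igsf8, a membrane protein that binds tetraspanins, averaged 59.2 and 479 CPM, Atp8a1, a phospholipid flippase, 2.999 and 38.4 CPM, and Scd3, a fatty acid desaturase, 14.5 and 122 CPM. The 3' end of Scd3 is near-identical to that of Scd1 over 141 bases, so its tags may come in part from Scd1.

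**Figure D5:**
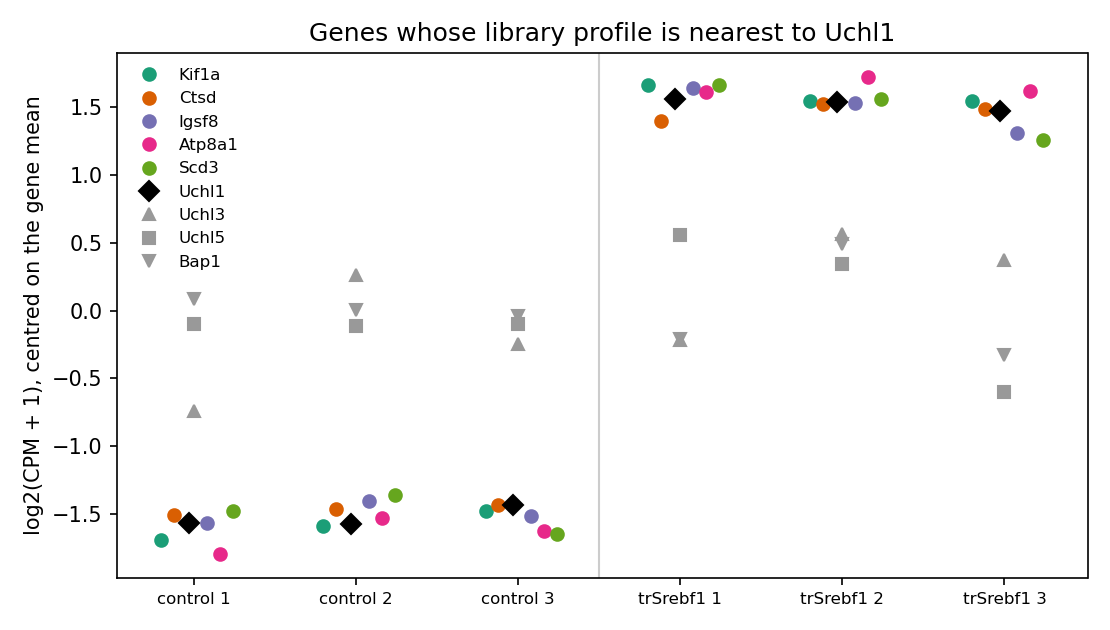
Log2(CPM + 1) of each gene in each library, with the gene's mean over the 6 libraries removed, for Uchl1 (black diamonds), its 5 nearest genes (coloured points) and the other UCH genes (grey). The nearest genes lie with Uchl1 at both sides of the vertical line that parts control from trSrebf1. The groups of Uchl3, Uchl5 and Bap1 overlap, with the control libraries of Uchl5 close together just below 0.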

How the data were processed

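Whole-number counts per gene symbol were deposited by the authors, 1 table per library for 3 control and 3 trSrebf1 libraries. Bowtie2 2.2.5 and mm10 are named, with no role, per the submitters' processing notes. How tags were counted, with which annotation and strand setting, remains not given in the sources used here, so tags of near-identical or overlapping genes are uncertain.

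Genes were tested on these counts with edgeR 4.0.16 in R 4.3.3, with filterByExpr (minimum count 10, minimum total 15), TMM factors, and glmQLFTest after a robust glmQLFit of the group. Two-sided p-values were adjusted over 10194 genes (Benjamini-Hochberg), and 0.05 was the threshold. Fold changes carry a prior count of 0.125. Each SE is the absolute log2 fold change over the root of F. Intervals use the total degrees of freedom of the test, which add prior to residual ones. CPM used TMM-scaled library totals. The fit was also run on simulated counts that gave all genes the same spread beyond counting error. That setting is simpler than these data, so the run does not gauge errors for genes of low count. Within a group, library pairs had a chi-square of 4.52 to 8.13 per degree of freedom, where counting error alone gives about 1, so none was treated as a copy. Counting errors ignore amplification, since no molecular identifiers are given.

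The members, lists and tests were chosen with earlier results of these data known. Named genes were the members, Srebf1, ubiquitin precursor genes, the 4 smallest unadjusted p-values of each pathway list, the 2 most abundant members of each marker list, and the 5 genes nearest to Uchl1. Symbols of unnamed genes, such as Gm models, were left out of the last group. Scd2, Gm1821, Chga, Elavl4, Rbfox3, Stmn2, Scg5, Egfl7, Foxj1, Cdh1, Cspg4, Cnn1, Kcnj8, Abcc9 and Myh11 were named after their values were seen. So were Col1a1, Col5a1, Col6a1, Dcn, Pdgfra, Krt8, Krt18, Ager, Epcam, Sftpa1 and Scgb1a1. Some results for genes under this rule are not reported here. Positions and 3' ends came from GENCODE M21 (GRCm38), and a 3' end was called near-identical at 95% identity or more over 50 or more of the last 300 bases (blastn). Alternatives were run with limma 3.58.1 and DESeq2 1.42.0 beside edgeR.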

Additional observations from a re-analysis of the deposited data

How the results depend on the processing

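Each result was recomputed under 15 alternatives: 3 other scalings, DESeq2, limma-voom, 2 other filters, Ctsd left out, a replicate block, and each library left out in turn. Uchl1 kept its direction in all 15, with a log2 fold change from 2.96 to 3.08, and the value with upper-quartile factors, 2.96, moved by more than the spread between libraries. Uchl3, Uchl5 and Ubb kept their direction and stayed short of the threshold wherever they were tested. Uchl3 was not tested under the filter of 5 CPM in 3 libraries, nor was Uchl5 there or with Ctsd left out, because they did not pass the filter. The sign of Bap1, whose log2 fold change was 0.0042, turned to -0.077 with upper-quartile factors, -0.068 with total counts, -0.070 with limma-voom, -0.010 under the 5 CPM filter, -0.013 with Ctsd left out and -0.029 with the replicate block, and ran from -0.34 to 0.18 with 1 library left out. It passed the threshold under none of the 15. Cldn18, also not past the threshold, had -0.29 and ran from -0.78 to 0.21 with 1 library left out, above 0 only without control replicate 2. The causes were not tested. The count of genes of other deubiquitinase families that rose was 6 to 11 with 1 library left out, against 10. In all, 1121 of 1210 recomputed values kept their direction and side of the threshold, or, for counts and untested values, stayed near the main value. Ubiquitin-like modifiers called lower numbered 3 without control replicate 1 and 2 without trSrebf1 replicate 2, but 0 without control replicate 2 or trSrebf1 replicate 3, against 1, and partners of Uchl5 called lower numbered 2 with upper-quartile factors or total counts, but 0 without control replicate 1 or trSrebf1 replicate 1, against 1. Counts over all genes stayed within 1534 to 1977 higher and 1061 to 1649 lower.

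The replicate numbers are shared between the groups, but nothing says that a number marks a shared mouse or day. Deviations of same-numbered libraries had correlations of -0.02, -0.20 and -0.14, so the numbers were not taken as pairs. With the replicate block 1646 genes were higher, against 1755, and Uchl1 had a log2 fold change of 3.05, Uchl3 0.67, Uchl5 0.31 and Ubb -0.17. Among named genes Otud3, Otud5 and Psmd2 lost their calls under the block (adjusted p = 0.0523, 0.0501 and 0.0730).

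At 4 to 30 tags a library, counting error alone is large for Uchl3, Uchl5 and Bap1.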
